A study of Mus musculus with 110 samples.

Results

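The complement genes C2, C3, C4b, C6, C7, C8a, C9, Cfb and Cfd were followed across liver and 3 fat depots of mice that had been fed less methionine, exposed to cold, or both. These 9 genes are 9 of the 56884 gene rows in each table of counts. They were chosen as complement components, and the choice used measured values: C2 and C6 were singled out because both were lower under methionine restriction at room temperature (MetR_RT) than on the control diet at room temperature (Ctrl_RT) in all 4 tissues. The comparison of MetR_RT with Ctrl_RT is therefore given for the members as a description, with no test. The comparison of MetR_CE with Ctrl_CE, which sets restriction against control diet in the cold, shares no library with it.

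RNA was sequenced from liver, interscapular brown fat (iBAT), inguinal white fat (iWAT) and epididymal white fat (eWAT) of 28 wild-type male C57BL/6N mice, housed singly and all ending the experiment at the same age. Control diet held 0.86% methionine per the labels and the restricted diet 0.12%, both without cysteine, so that the control mice also ate a diet free of cysteine. Diets were given for 7 days at 22 °C, after which the mice of Ctrl_CE and MetR_CE spent 24 h at 4 °C on the same diets. Each of the 4 groups (Ctrl_RT, MetR_RT, Ctrl_CE and MetR_CE) had 7 mice, and the tissues come from the same animals.

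Complement is a cascade of plasma proteins, made largely in the liver, that marks targets for uptake by phagocytes and can punch pores into membranes. In the classical pathway C4 and the serine protease C2 form the enzyme that cleaves C3. In the alternative pathway C3 pairs with factor B (Cfb), which factor D (Cfd) activates. Past C3, the proteins C5 to C9 assemble into the membrane attack complex. Factor D, also called adipsin, is known as a product of fat cells, and adipose tissue makes C3 as well.

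Of the 110 libraries, 105 were used. The study's own exclusions were followed for iBAT replicate 5 of Ctrl_CE, eWAT replicates 2, 4 and 5 of Ctrl_RT, and eWAT replicate 7 of MetR_RT, which leaves only 4 Ctrl_RT libraries in eWAT and 6 or 7 libraries in the other groups. Libraries held 22625093 to 33372110 counts in eWAT, 16607493 to 33141066 in iWAT, 12672686 to 31232349 in iBAT and 6987895 to 33444374 in liver. The 6 hepatocyte markers summed to 57585 to 101868 CPM (counts scaled to library size) in liver libraries, and the 6 adipocyte markers to 8474 to 30665 CPM in the fat depots. In 3 iBAT libraries a second label names another group than the title, and the title was followed. Replicate 4 of Ctrl_CE, 1 mouse, stood apart from its group in every tissue: S100a9, a calcium-binding protein of neutrophils, was at 14.1 to 22.8 CPM in its tissues and between 47.8 and 85.3 times the median of the other libraries. Its liver also held 10985 CPM of Saa1, an acute phase protein, against 10.2 to 2185 CPM in the other livers of Ctrl_CE. S100a9 and Saa1 were looked up after the values were seen, and calls of the members and of the complement genes named that rest on this mouse are given with and without it.

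Levels are CPM after scaling of library sizes within a tissue, and a group is described by its lowest, median and highest library. Between genes, levels are compared only per kilobase of exon. In liver at Ctrl_RT, C3 had the highest median of the members at 2416 CPM per kilobase, followed by C4b at 579, C9 at 359, C8a at 350 and C6 at 129. Cfb at 36.6 and C2 at 24.0 CPM per kilobase came lower, and C7 and Cfd were near the detection limit in liver at 0.187 and 0.181. In the fat depots the order was another: Cfd led with 379 CPM per kilobase in iBAT, 7439 in iWAT and 8299 in eWAT. C3 came second with 236, 389 and 240. C9 and C8a, which led the terminal components among the members in liver, were near 0 in all 3 depots. At 1 CPM or more, 7 members were measured in each of liver, iWAT and eWAT and 5 in iBAT, or 26 of the 36 combinations of member and tissue.

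C4b (34728380 to 34743882), Cfb (34856374 to 34862518) and C2 (34862604 to 34898265) lie near each other on chromosome 17 of GRCm38, and C3 (57203970 to 57228136) lies further off on the same chromosome, all on the minus strand. C2 ends 85 bases from Cfb, and a further gene model, Gm20547, overlaps both but held no more than 3 counts in any group of any tissue. C4b has a near-identical copy, C4a, at a median of 97.1 CPM in liver at Ctrl_RT, so that reads between them may be split. C6 (4727175 to 4814967, plus strand), C7 (4988762 to 5063740, minus strand) and C9 (6445327 to 6498751, plus strand) share chromosome 15. C8a lies on chromosome 4 at 104815679 to 104876398, minus strand, and Cfd on chromosome 10 at 79890853 to 79892655, plus strand.

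The promoters shown are those of C9, the most abundant terminal component among the members in liver per length, and C3, the most abundant member. They were also picked because each holds the letters TTGCNNAA, the core bound by CCAAT/enhancer-binding proteins, which are known regulators of liver and acute phase genes. Each sequence is the 250 bases before the RefSeq start in GRCm38.p6, and capitals mark the match.
C9, chr15:6445096-6445345, plus strand: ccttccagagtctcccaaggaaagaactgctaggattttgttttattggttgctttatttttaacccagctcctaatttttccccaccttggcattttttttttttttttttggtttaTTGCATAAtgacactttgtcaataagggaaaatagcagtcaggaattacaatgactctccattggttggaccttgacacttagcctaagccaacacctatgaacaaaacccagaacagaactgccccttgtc
C3, chr17:57228137-57228386, minus strand: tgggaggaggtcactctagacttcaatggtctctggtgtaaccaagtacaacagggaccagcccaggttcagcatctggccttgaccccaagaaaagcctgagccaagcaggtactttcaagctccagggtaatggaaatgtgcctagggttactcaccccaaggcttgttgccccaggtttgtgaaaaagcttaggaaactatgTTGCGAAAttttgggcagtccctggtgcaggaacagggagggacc
The match in C9 began 132 bases and that in C3 45 bases before the start. A RefSeq promoter was found for 6 of the 9 members, and 2 of these 6 held TTGCNNAA on either strand, as did 9.56% of all 32851 promoters of the same length. The STAT letters TTCNNNGAA were in the promoters of C7 and C8a and in 7.02% of all promoters. The interferon-stimulated response element (2.98% of all promoters), TGATGNAA of C/EBP-ATF sites (3.45%) and CAAAGTCCA of HNF4 (0.384%) were in none of the 6 windows. A match is a run of letters and not a measured site.

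C2, the protease of the classical C3 convertase, had lower levels in every treated group of the liver than in Ctrl_RT. Liver C2 was at 82.8, 93.0 and 111 CPM in Ctrl_RT, 47.6, 61.4 and 69.1 in MetR_RT, 59.2, 65.5 and 76.4 in Ctrl_CE, and 47.1, 50.4 and 60.2 in MetR_CE. No library of the other groups reached the lowest Ctrl_RT library. As a description of the contrast that chose it, the log2 fold change in MetR_RT was -0.68 ± 0.08 (SE), the smallest of the 4 tissues. Cold on the control diet lowered C2 by a log2 fold change of -0.52 ± 0.08 (adjusted p = 5.45e-06, edgeR quasi-likelihood test), and restriction in the cold gave -0.33 ± 0.08 (adjusted p = 0.00389). The first of these comparisons uses the same Ctrl_RT libraries as the choice of C2. The cold change separated the groups, whereas Ctrl_CE and MetR_CE overlapped, and both changes were under the fold of 1.5 that the study requires, so that neither was called. A gene is called here at an adjusted p under 0.05 together with that fold.

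The fat depots showed the same order of Ctrl_RT above the rest for C2, at lower levels in iBAT. C2 in iBAT was at 1.56, 1.94 and 3.01 CPM in Ctrl_RT, 0.401, 0.756 and 1.30 in MetR_RT, 0.489, 1.42 and 1.78 in Ctrl_CE, and 0.502, 0.575 and 0.899 in MetR_CE. In iWAT the levels were 31.1, 55.9 and 70.9 CPM in Ctrl_RT, 15.8, 27.04 and 36.4 in MetR_RT, 21.2, 29.5 and 45.2 in Ctrl_CE, and 14.7, 22.2 and 25.0 in MetR_CE. In eWAT the 4 Ctrl_RT libraries held 138, 108, 85.3 and 90.9 CPM, against 37.8, 48.9 and 89.001 in MetR_RT, 38.7, 48.5 and 59.0 in Ctrl_CE and 31.7, 46.3 and 54.9 in MetR_CE. Among the libraries used, Ctrl_RT was clear of Ctrl_CE in eWAT, while in iWAT and iBAT these groups overlapped. Replicates 2 and 5 of Ctrl_RT in eWAT, which the study left out, held 44.9 and 42.9 CPM scaled with all libraries. These lie within the 40.3 to 60.7 CPM of Ctrl_CE in that scaling. C2 fell with cold on the control diet in iBAT (log2 fold change -0.74 ± 0.25, adjusted p = 0.0214), iWAT (-0.97 ± 0.19, adjusted p = 0.000325) and eWAT (-1.16 ± 0.19, adjusted p = 0.00113). These changes use the same Ctrl_RT libraries as the choice of C2. Restriction in the cold, which does not, lowered C2 in iBAT (-0.99 ± 0.27, adjusted p = 0.0268); the values were -0.50 ± 0.20 in iWAT (adjusted p = 0.158) and -0.07 ± 0.17 in eWAT (adjusted p = 0.864), neither passing. In bulk tissue, fewer cells of a type and less RNA per cell cannot be told apart.

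C4b, whose product joins C2 in the classical convertase, fell under restriction in the cold in liver and iBAT. Liver C4b was at 3037, 3296 and 4304 CPM in Ctrl_RT, 1489, 1666 and 2144 in MetR_RT, 1814, 2397 and 3639 in Ctrl_CE, and 1293, 1523 and 1631 in MetR_CE. The 2 groups in the cold did not overlap, and the log2 fold change between them was -0.72 ± 0.12 (adjusted p = 8.66e-05), or 1.65-fold. C4b in iBAT was at 15.4, 42.004 and 57.5 CPM in Ctrl_RT, 7.40, 8.26 and 10.7 in MetR_RT, 5.42, 21.4 and 43.2 in Ctrl_CE, and 4.72, 6.63 and 19.1 in MetR_CE. Here the groups in the cold overlapped, with a log2 fold change of -1.43 ± 0.35 (adjusted p = 0.0142). In iWAT, C4b was at 939, 1556 and 1702 CPM in Ctrl_RT, 383, 559 and 1002.7 in MetR_RT, 555, 666 and 1295 in Ctrl_CE, and 284.8, 528 and 650 in MetR_CE. It fell with cold there (-0.87 ± 0.23, adjusted p = 0.00419), and the value for restriction in the cold was -0.70 ± 0.24 (adjusted p = 0.0976; 0.0311 by DESeq2). Without replicate 4 of Ctrl_CE, the cold comparison on the control diet also passed in iBAT (-0.93, adjusted p = 0.0458, against -0.72 and 0.118 with it). C4b in eWAT was at 1173, 810, 968 and 488 CPM in the 4 Ctrl_RT libraries, 140, 304 and 961 in MetR_RT, 308, 406 and 1891 in Ctrl_CE, and 246.5, 563 and 834 in MetR_CE. Its groups overlapped there, and it passed in no comparison. In the contrast that singled out C2 and C6, the members C4b, Cfb and C3 also had values below 0 in all 4 tissues. Their log2 fold changes in eWAT were -0.96 ± 0.50, -0.41 ± 0.21 and -0.40 ± 0.38. The smallest value of C2 and C6 was the -0.68 of C2 in liver.

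**Figure D1:**
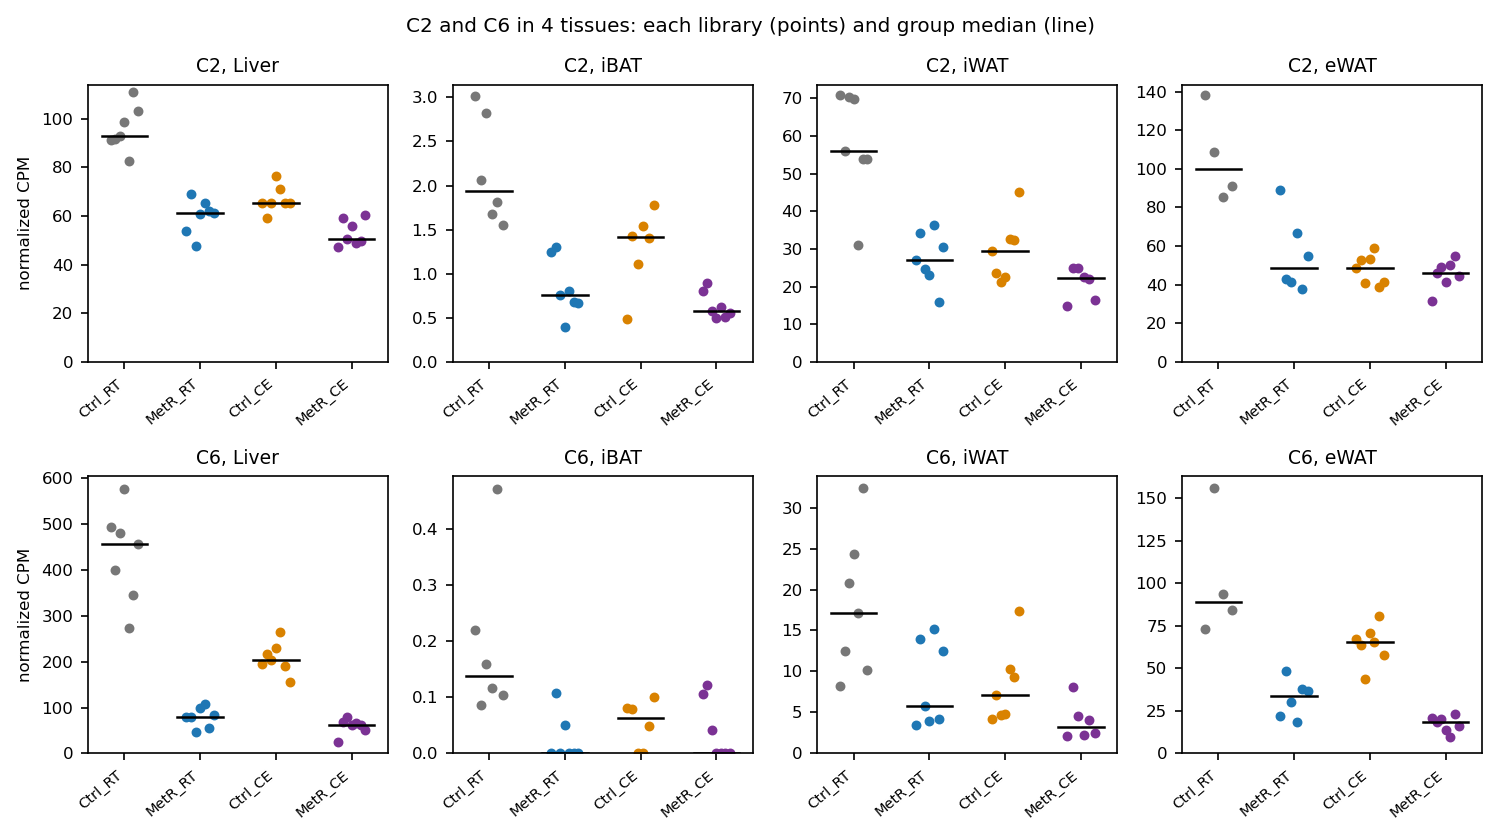
Levels of C2 (upper row) and C6 (lower row) in normalized CPM, each panel with its own axis from 0, by tissue and group; points are libraries and lines are group medians. Ctrl_RT holds the highest median in every panel, and C6 in iBAT stays under 0.5 CPM in every library.

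C3, the central component that both pathways cleave, was at 10052, 12426 and 17000 CPM in liver at Ctrl_RT, 7357, 8199 and 9768 in MetR_RT, 7961, 10048 and 28498 in Ctrl_CE, and 7574, 8643 and 9199 in MetR_CE. The highest value belongs to replicate 4 of Ctrl_CE, and the other 6 libraries of that group ended at 14236 CPM. With that mouse, restriction in the cold changed liver C3 by a log2 fold change of -0.59 ± 0.19 (adjusted p = 0.0412). Without it the value was -0.26 (adjusted p = 0.171), so that the call in liver rests on this library, and the call was also lost when only the groups compared were fitted (adjusted p = 0.0978). Without the mouse, the comparison of Ctrl_CE with Ctrl_RT moved from -0.02 (adjusted p = 0.962) to -0.33 (adjusted p = 0.0375), still under the fold required.

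In the white depots C3 fell under restriction in the cold with and without that mouse. C3 in iWAT was at 1359, 2000 and 2644 CPM in Ctrl_RT, 825, 1229 and 2002 in MetR_RT, 793, 1386 and 2408 in Ctrl_CE, and 539, 741 and 1311.9 in MetR_CE. Its log2 fold change between the diets in the cold was -0.94 ± 0.24 (adjusted p = 0.0317), and -0.80 (adjusted p = 0.0485) without replicate 4 of Ctrl_CE. In eWAT the 4 Ctrl_RT libraries held 2141, 1538, 892 and 926 CPM, MetR_RT 882, 977 and 1545, Ctrl_CE 692, 1025 and 3406, and MetR_CE 195, 542 and 713. MetR_CE and Ctrl_CE overlapped only between 692 and 713 CPM. The change was -1.31 ± 0.33 (adjusted p = 0.0102), or 2.48-fold, and -0.87 (adjusted p = 0.0253) without the same mouse. Cold on the restricted diet lowered C3 in iWAT as well (-0.80 ± 0.24, adjusted p = 0.0495). The corresponding eWAT value was -0.99 ± 0.33 (adjusted p = 0.184), although the groups did not overlap among the libraries used. Scaled with all libraries, the left-out replicate 7 of MetR_RT held 549 CPM, within the 196 to 726 CPM of MetR_CE. The iWAT value no longer passed when only the groups compared were fitted (adjusted p = 0.0554).

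In brown fat C3 was called for cold on the control diet and not for restriction in the cold. Its levels in iBAT were 1034, 1213 and 1374 CPM in Ctrl_RT, 699, 802 and 952 in MetR_RT, 573, 672 and 1070 in Ctrl_CE, and 554, 612 and 776 in MetR_CE. Cold on the control diet lowered it by a log2 fold change of -0.71 ± 0.11 (adjusted p = 8.26e-06), while restriction in the cold gave -0.24 ± 0.11 (adjusted p = 0.218). The difference of the restriction effect between iBAT and eWAT was tested in a joint fit of all tissues and was 1.08 ± 0.34 on the log2 scale (adjusted p = 0.0481). It was the only call in 30 tests of members measured at 1 CPM or more in both tissues; over all genes 2.21% were called for that pair of tissues, and 1.24%, 1.88%, 4.36%, 0.333% and 0.955% for liver with iBAT, iWAT and eWAT, iBAT with iWAT, and iWAT with eWAT. With the mouse as a block in limma the difference was 1.06 (adjusted p = 0.272), and without replicate 4 of Ctrl_CE it was 0.78 (adjusted p = 0.107), so that the call did not stand in either.

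**Figure D2:**
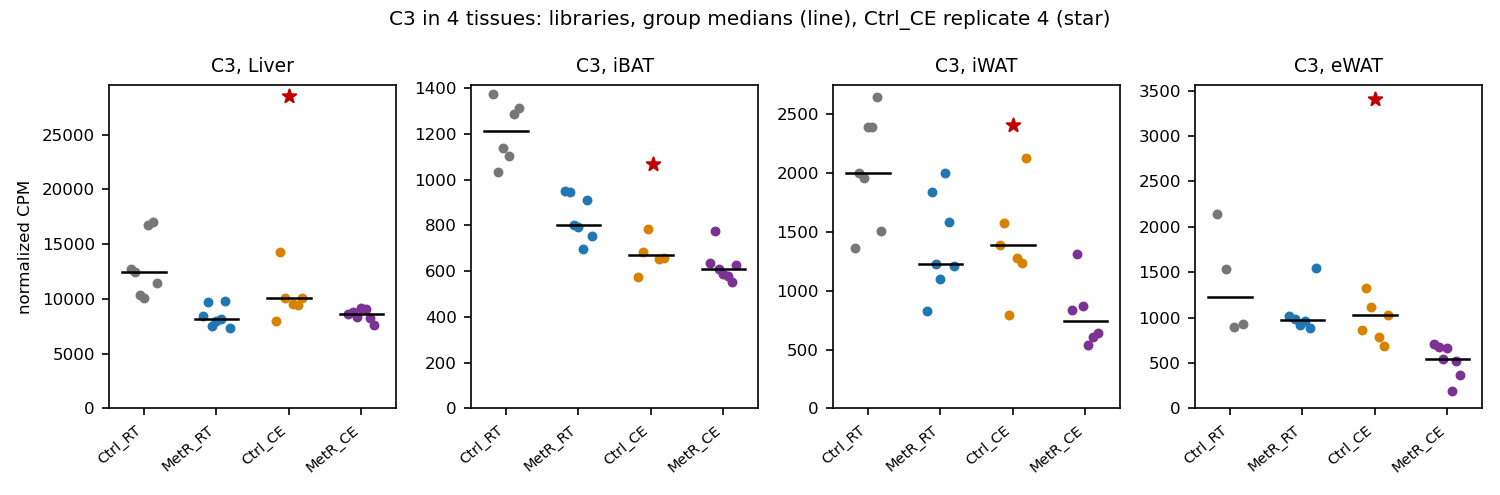
Levels of C3 in normalized CPM by tissue and group, each panel with its own axis from 0; points are libraries, lines are group medians and the star is replicate 4 of Ctrl_CE. That mouse has the highest C3 of its group in all 4 tissues, with 28498 CPM in liver and 3406 CPM in eWAT.

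Cfb, the alternative pathway's counterpart of C2, was lower on the restricted diet in liver at both temperatures. Liver Cfb was at 88.3, 103 and 122 CPM in Ctrl_RT, 54.05, 68.97 and 76.2 in MetR_RT, 86.1, 106 and 131 in Ctrl_CE, and 67.9, 71.8 and 81.4 in MetR_CE. Both pairs of control and restricted groups were free of overlap. Restriction in the cold lowered it by a log2 fold change of -0.54 ± 0.09 (adjusted p = 0.000113), under the fold required, and cold on the control diet gave 0.02 ± 0.09 (adjusted p = 0.909). Its neighbour C2 had a cold value of -0.52 in the same livers; whether the 2 genes differed in this was not tested. In iWAT, Cfb was at 17.8, 23.5 and 27.2 CPM in Ctrl_RT, 8.62, 12.4 and 17.2 in MetR_RT, 10.9, 18.3 and 24.8 in Ctrl_CE, and 11.3, 13.8 and 15.3 in MetR_CE, and passed in none of the comparisons tested. Cfb in iBAT reached at most 1.55 CPM, and in eWAT it ranged from 11.9 to 33.8 CPM, with no call in either depot for the comparisons tested.

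Cfd, the protease that activates factor B, was not called by edgeR or DESeq2 in any tissue, and in the comparisons tested it did not reach an unadjusted p of 0.05. In iWAT it was at 3741, 6858 and 7754 CPM in Ctrl_RT, 5213, 7384 and 8671 in MetR_RT, 2863, 6064 and 9393 in Ctrl_CE, and 4102, 6130 and 8477 in MetR_CE. In eWAT the 4 Ctrl_RT libraries held 7862, 8873, 7441 and 4914 CPM, and the medians of the other groups were 9480, 6016 and 6873 in MetR_RT, Ctrl_CE and MetR_CE. The groups compared overlapped in both depots. For restriction in the cold, the log2 fold change of Cfd was -0.54 in iBAT, -0.03 in iWAT and 0.36 in eWAT. The iBAT value was -0.11 without replicate 4 of Ctrl_CE, which held 576 CPM against a median of 150 in the others.

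The terminal components C6, C8a and C9, which with C5, C7 and the other C8 chains form the membrane attack complex, showed the largest changes in liver among the members at 1 CPM or more there. Liver C6 was at 273.1, 458 and 578 CPM in Ctrl_RT, 45.8, 80.6 and 108 in MetR_RT, 156, 203 and 263.96 in Ctrl_CE, and 24.0, 61.5 and 79.6 in MetR_CE. C8a, a chain of the C8 complex, was at 1154, 1272 and 1620 CPM in Ctrl_RT, 220, 468 and 573 in MetR_RT, 439, 528 and 755 in Ctrl_CE, and 137, 259.04 and 264.01 in MetR_CE. C9, which forms the wall of the pore, was at 711, 919 and 1101 CPM in Ctrl_RT, 138, 211 and 312 in MetR_RT, 378, 455 and 588 in Ctrl_CE, and 76.3, 128 and 176 in MetR_CE. For each of the 3 genes Ctrl_RT stood clear of the other groups, and MetR_CE was clear of Ctrl_CE.

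Restriction in the cold lowered liver C6 by a log2 fold change of -1.82 ± 0.20 (adjusted p = 4.34e-07), C9 by -1.75 ± 0.16 (adjusted p = 3.84e-08) and C8a by -1.23 ± 0.16 (adjusted p = 8.02e-06). In folds, these are 3.54 for C6, 3.35 for C9 and 2.34 for C8a. Without replicate 4 of Ctrl_CE the values were -1.80, -1.78 and -1.14, all called. Cold on the control diet also lowered the 3 genes, with log2 fold changes of -1.06 ± 0.19 for C6 (adjusted p = 9.42e-05), -0.99 ± 0.16 for C9 (adjusted p = 1.72e-05) and -1.28 ± 0.16 for C8a (adjusted p = 7.02e-07). For C6, here and in iWAT, these tests share the Ctrl_RT libraries with the contrast by which it was chosen. On the restricted diet, cold lowered C8a (-0.89 ± 0.16, adjusted p = 0.000183) and C9 (-0.71 ± 0.16, adjusted p = 0.00163), and C6 gave -0.42 ± 0.19 (adjusted p = 0.134). The difference of the cold effect between the diets was 0.63 ± 0.27 for C6 (adjusted p = 0.237), 0.39 ± 0.23 for C8a (adjusted p = 0.412) and 0.28 ± 0.22 for C9 (adjusted p = 0.576), so that an interaction of diet and cold was not shown. The hepatocyte markers summed to medians of 79288, 75039, 76689 and 61538 CPM in Ctrl_RT, MetR_RT, Ctrl_CE and MetR_CE of the liver. For restriction in the cold 1 of the 6 was called lower, and for cold on the control diet 2 of the 6. With replicate 4 of Ctrl_CE left out, 0 were called lower and 1 higher for restriction in the cold, and 2 lower for cold on the control diet. The part of these markers in the result was not tested.

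**Figure D3:**
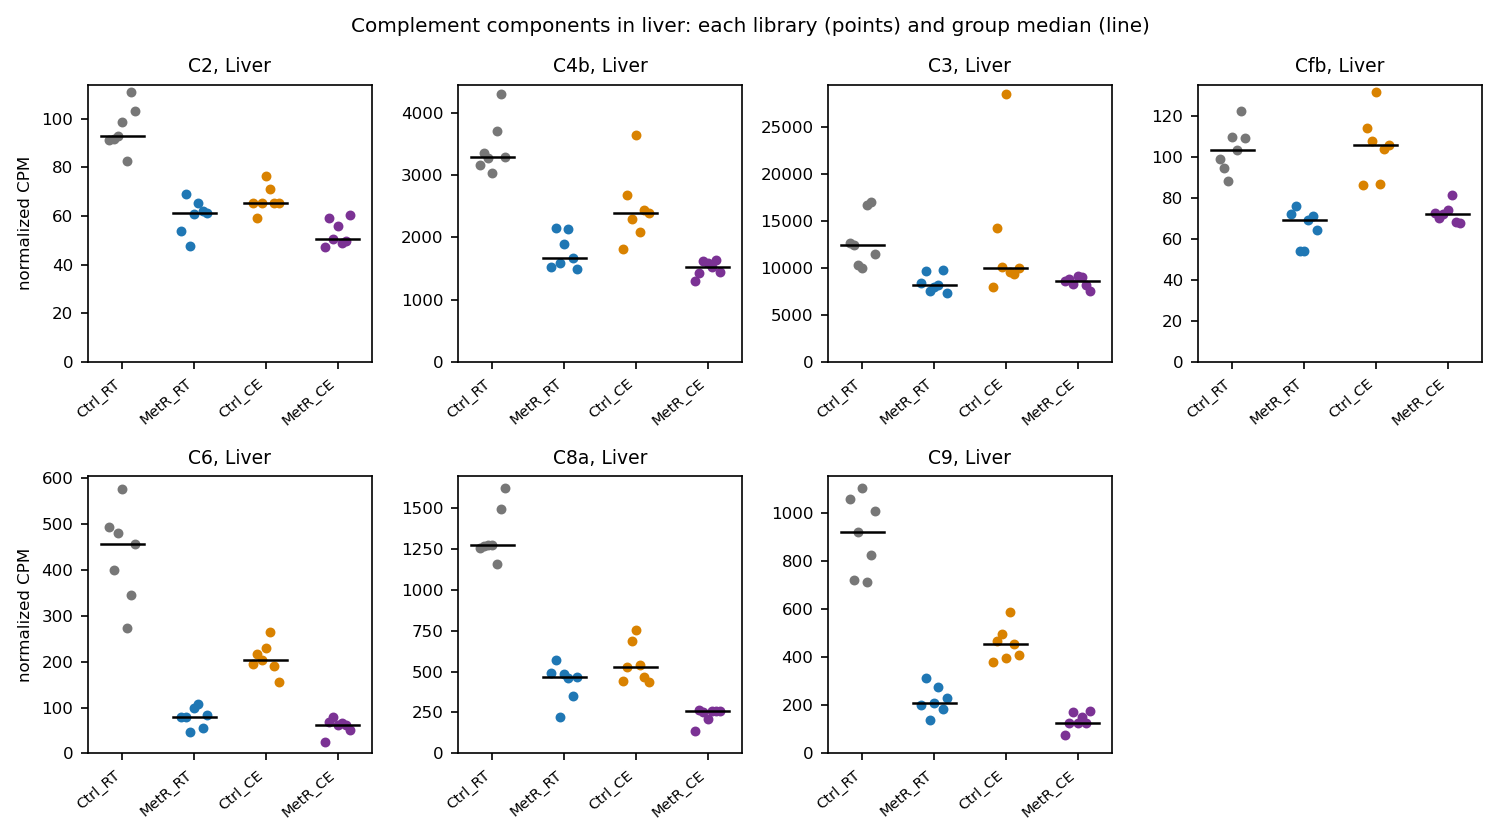
Levels of 7 members in liver by group, in normalized CPM on axes that start at 0; points are libraries and lines are group medians. C6, C8a and C9 have their lowest medians in MetR_CE, at 61.5, 259.04 and 128 CPM, and the Cfb groups separate by diet at both temperatures.

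Among the other terminal genes of the liver, looked up after the values were seen, Hc, which encodes C5, fell under restriction in the cold by a log2 fold change of -0.93 ± 0.12, and C8b, another chain of C8, by -0.76 ± 0.13, both without overlap. C8g, the remaining chain of C8, gave -0.23 ± 0.09 (adjusted p = 0.101). C7 was scarce in liver, between 0.156 and 2.00 CPM, with group medians of 0.500 to 0.943 and no call.

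C6 in white fat followed the same order as in liver at lower levels. In eWAT the 4 Ctrl_RT libraries held 73.2, 156, 94.1 and 84.5 CPM, MetR_RT 18.4, 33.7 and 48.2, Ctrl_CE 43.7, 65.4 and 81.02, and MetR_CE 9.47, 18.7 and 23.1. The groups on the restricted diet lay below those on the control diet at either temperature, without overlap. Restriction in the cold lowered C6 in eWAT by a log2 fold change of -1.87 ± 0.21 (adjusted p = 1.78e-05), or 3.65-fold. With the libraries left out by the study put back, the value was -1.86 (adjusted p = 0.000702), and leaving out each eWAT library in turn kept it between -1.96 and -1.76. In iWAT, C6 was at 8.20, 17.1 and 32.3 CPM in Ctrl_RT, 3.51, 5.83 and 15.2 in MetR_RT, 4.24, 7.14 and 17.4 in Ctrl_CE, and 2.10, 3.25 and 8.05 in MetR_CE. These groups overlapped, and the log2 fold change was -1.11 ± 0.39 for cold on the control diet (adjusted p = 0.0330; 0.0685 without replicate 4 of Ctrl_CE) and -1.09 ± 0.42 for restriction in the cold (adjusted p = 0.150). Cold on the restricted diet gave -0.87 ± 0.22 for C6 in eWAT (adjusted p = 0.0803), which passed when replicate 1 (adjusted p = 0.0322) or replicate 4 (adjusted p = 0.0408) of MetR_RT was left out. The effect of restriction in the cold differed between liver and eWAT by 0.04 ± 0.36 on the log2 scale in the joint fit, and between liver and iWAT by -0.75 ± 0.40 (adjusted p = 0.412).

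The iBAT value of C6, and with it the statement that C6 was lower in all 4 tissues, rests on few reads. C6 had 30 counts in the 6 Ctrl_RT libraries of iBAT, 3 in the 7 MetR_RT libraries, 8 in the 6 of Ctrl_CE and 7 in the 7 of MetR_CE. As a description of the contrast that chose C6, the ratio of MetR_RT to Ctrl_RT was 0.109. That of MetR_CE to Ctrl_CE was 0.834, with an exact 95% interval of 0.258 to 2.63 that covers counting error only. Replicate 5 of Ctrl_RT held 12 of the 30 counts, and also 10 of the 14 C8a counts and 4 of the 5 C9 counts of its group. Its hepatocyte markers summed to 53.9 CPM. Without that library the fitted value of C6 in MetR_RT was -2.36. For C2 and C6 in eWAT the same contrast moves with the libraries left out: with all libraries the MetR_RT values were -0.71 for C2 and -1.45 for C6, against -0.95 and -1.68 without them. Scaled with all libraries, those put back into Ctrl_RT held 44.9, 95.1 and 42.9 CPM of C2 and 67.998, 90.5 and 22.5 CPM of C6 in replicates 2, 4 and 5. Leaving out replicates 2 and 5, which were lowest among the Ctrl_RT libraries in both genes, thus raised that group.

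C7, which binds C5 and C6 to membranes, was a member of fat and not of liver. In iBAT it was at 3.598, 8.45 and 12.4 CPM in Ctrl_RT, 1.66, 2.82 and 3.76 in MetR_RT, 3.67, 5.53 and 11.8 in Ctrl_CE, and 1.91, 2.64 and 3.80 in MetR_CE. The cold-exposed groups met only at their ends, and C7 fell under restriction in the cold by a log2 fold change of -1.11 ± 0.28 (adjusted p = 0.0163). In eWAT the 4 Ctrl_RT libraries held 59.3, 150, 201 and 41.2 CPM, and the range within MetR_CE was 4.40 to 141 CPM. C7 was not called in iWAT or eWAT, where for restriction in the cold it gave 0.10 ± 0.32 and -0.90 ± 0.59. C8a and C9 were near 0 in fat. In eWAT, C8a was at 0 in all 4 Ctrl_RT libraries and reached 2.22 CPM in replicate 5 of Ctrl_CE. Scaled over all eWAT libraries, the hepatocyte markers summed to 125 CPM in that library and to 219 CPM in replicate 6, the highest of the group. Neither C8a nor C9 was called in fat.

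Read over the members, all calls were to lower levels. For restriction in the cold, 5 of 9 members were called lower in liver, where 4.10% of the 22143 genes tested were. Without replicate 4 of Ctrl_CE, which ended the call of C3, the liver count was 4. In iBAT 3 of the 8 members tested were called lower, against 1.16% of all genes. In iWAT 1 of 9 was, against 1.55%, and in eWAT 2 of 9 were, against 2.12%. In liver 5 members had MetR_CE wholly below Ctrl_CE, as did 1.60% of all genes. For cold on the control diet the counts were 3 in liver (4.64% of all genes), 2 in iBAT (9.72%), 3 in iWAT (9.94%) and 1 in eWAT (1.44%). Without replicate 4 of Ctrl_CE, C6 lost its call in iWAT and C4b gained one in iBAT, as given above. Over all genes tested in iWAT, the median of this comparison was -0.11 on the log2 scale, which the members' values there include, and in every other comparison the median lay closer to 0. For cold on the restricted diet, 2 members were called in liver (2.44% of all genes), 1 in iWAT (1.28%) and 0 in iBAT and eWAT, where 5.13% and 0.0504% of all genes were called lower. In iBAT 1 member and in eWAT 3 members had an unadjusted p under 0.05 there, and DESeq2 called 0 and 1, the latter C6. In the contrast the choice used, the counts were 7 (4.02%), 5 (1.97%), 4 (7.36%) and 2 (0.0828%) in the same order of tissues, from which nothing is read.

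**Figure D4:**
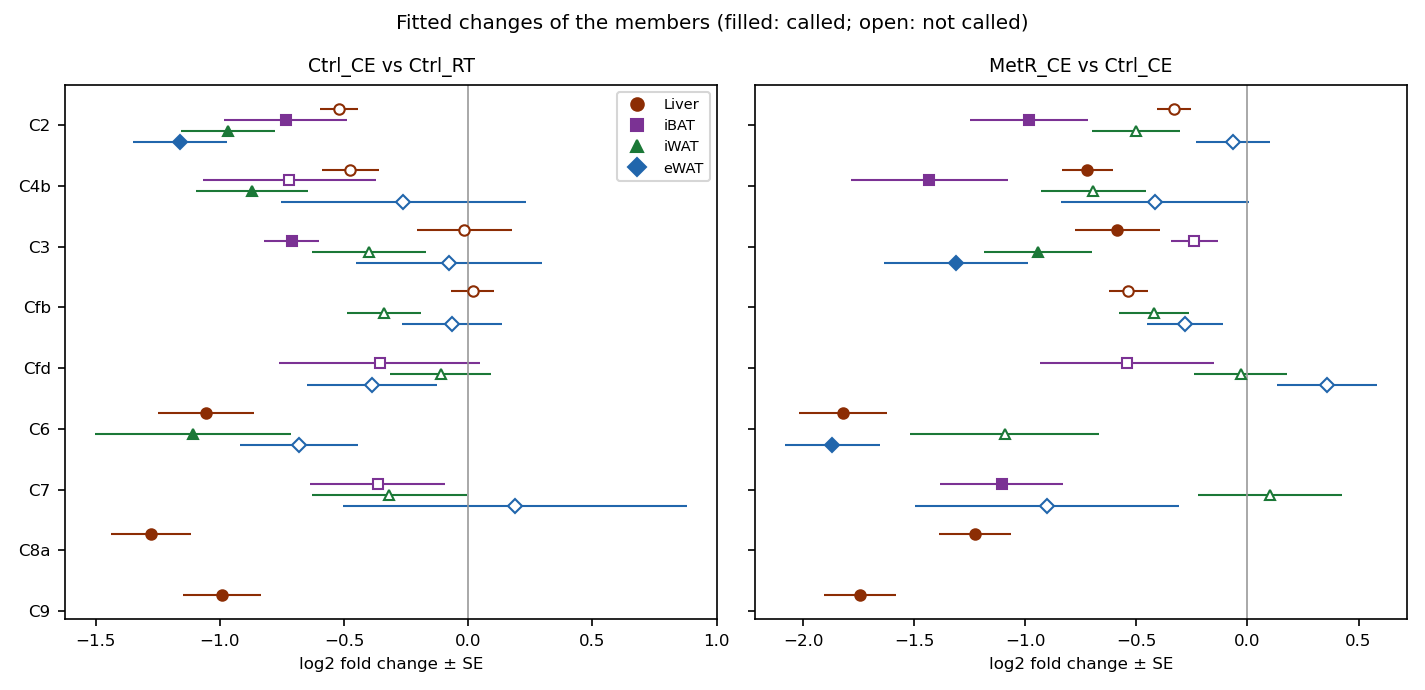
Fitted log2 fold changes of the members with their standard errors, for cold on the control diet (left) and restriction in the cold (right), by tissue; filled symbols are called and open symbols are not, and combinations under 1 CPM are left out. In the right panel C6 in liver and eWAT and C9 in liver lie farthest left, at -1.82, -1.87 and -1.75.

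The interaction of diet and cold was called by edgeR for 0 of the 35 combinations of member and tissue tested; 6 had an unadjusted p under 0.05, and DESeq2 called 1, C2 in eWAT. That value was 0.88 ± 0.26 (adjusted p = 0.0610 by edgeR). The interaction contains the contrast of MetR_RT with Ctrl_RT in which C2 was chosen as low, and that choice favours a value above 0. The eWAT medians of C2 were 48.9, 48.5 and 46.3 CPM in MetR_RT, Ctrl_CE and MetR_CE, all below the 4 Ctrl_RT libraries. It passed in edgeR when replicate 4 of Ctrl_CE, replicate 1 or 4 of MetR_RT or replicate 1 of MetR_CE was left out. The interaction was called for 1.06%, 0.372%, 1.65% and 2.30% of all genes in the order liver, iBAT, iWAT and eWAT.

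The 3 calls of restriction in the cold in iBAT, C2, C4b and C7, depend on how the libraries with 2 labels are read. Grouped by the second label, the log2 fold changes were -1.11, -1.50 and -1.21 with adjusted p of 0.0866, 0.116 and 0.116, and 5 of all genes were called in place of 392. The call of C4b also missed when only the groups compared were fitted (adjusted p = 0.0556), and that of C2 for cold on the control diet when the 3 libraries were left out (adjusted p = 0.0543). Marker genes of other cells moved with the members in several tissues. For restriction in the cold, macrophage markers were called lower for 7 of 8 in liver and 5 of the 7 tested in iBAT. They were called lower for 7 of 8 in iWAT (6 without replicate 4 of Ctrl_CE) and 2 of 8 in eWAT (1 without it). Their summed level ran from 284.2 to 910 CPM in Ctrl_CE and 286.996 to 341 in MetR_CE of the liver, 49.5 to 119 and 30.6 to 52.3 in iBAT, 291.2 to 1528 and 185 to 460 in iWAT, and 403 to 949 and 335 to 561 in eWAT. Fibroblast and progenitor markers were called lower for 2 of 7 in liver, 5 of 7 in iBAT, 3 of 7 in iWAT and 2 of 7 in eWAT, with summed levels of 186 to 442 CPM in Ctrl_CE and 116 to 222 in MetR_CE of iBAT. The part of these cells in the changes of the members was not tested. For cold on the control diet in liver, 5 of the 8 macrophage markers were called higher (3 without replicate 4 of Ctrl_CE), whereas C6, C8a and C9 fell. In iWAT, where C2, C4b and C6 were called lower with cold, 7 of the 8 macrophage markers were called lower and 1 higher (6 and 0 without replicate 4 of Ctrl_CE). In the same comparison 3 of the 7 fibroblast and progenitor markers were called lower and all 4 brown adipocyte markers higher. The summed macrophage markers there ran from 1373 to 2117 CPM in Ctrl_RT and from 291.2 to 1528 CPM in Ctrl_CE. The brown adipocyte markers summed to 80.8 to 831 CPM in Ctrl_RT and 828 to 5703 CPM in Ctrl_CE. The part of these markers in the members' values was not tested.

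The members were next set beside the other complement genes, taken from a list of 55 genes with the members in it. For restriction in the cold, 19 of the 53 listed genes tested in liver were called, all lower, with a median log2 fold change of -0.38, where that of all genes was -0.01. In iBAT 15 of 46 were called (median -0.64), in iWAT 9 of 50 (-0.62) and in eWAT 4 of 55 (-0.22), again all lower. Over all genes the shares called lower were the 4.10%, 1.16%, 1.55% and 2.12% given above. Without replicate 4 of Ctrl_CE the count of listed genes was 16 in liver and 8 in iWAT. In iBAT it was 12 to 15 when replicate 4 of Ctrl_CE or replicate 5 of Ctrl_RT was left out. The iBAT count was 0 by the second label in edgeR (27 at an unadjusted p under 0.05), the iWAT count 3 with a replicate block and 15 by DESeq2, and the eWAT count 2 with all libraries and 2 to 7 when single libraries were left out, with 2 without replicate 4 of Ctrl_CE, replicate 5 of MetR_CE or replicate 7 of MetR_CE and 7 without replicate 1 of Ctrl_CE. In the main fit, leaving the members out, the counts were 14 of 44, 12 of 38, 8 of 41 and 2 of 46. By role, 5 of 9 receptors were called lower in liver, 3 of 9 in iBAT and 4 of 9 in iWAT. The liver receptors include C5ar1, which was not called without replicate 4 of Ctrl_CE. Receptors in eWAT gave 0 of 9 by edgeR, with 3 at an unadjusted p under 0.05 and 1 called by DESeq2. Of the genes of initiation by the classical and lectin pathways, 5 of 18 were called lower in liver, 7 of 15 in iBAT, 3 of 16 in iWAT and 2 of 19 in eWAT. Terminal components gave 5 of 7 in liver, 1 of 6 in iBAT, 0 of 6 in iWAT (2 at an unadjusted p under 0.05, 1 called by DESeq2) and 1 of 7 in eWAT. Regulators gave 2 of 15 in liver and 3 of 12 in iBAT. In iWAT 0 of 15 and in eWAT 0 of 16 regulators were called by edgeR or DESeq2, with 2 and 3 at an unadjusted p under 0.05.

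By size of change, receptors of phagocytes were first among the other genes in liver and iBAT. In liver Itgam and Itgb2, the chains of complement receptor 3, fell by log2 fold changes of -1.89 (adjusted p = 0.00343) and -1.39 (adjusted p = 0.000740), and C5ar1, the receptor of C5a, by -1.84 (adjusted p = 0.0152). Without replicate 4 of Ctrl_CE the calls of Itgam (-1.49) and Itgb2 (-1.16) stood, and C5ar1 gave -0.75 (adjusted p = 0.113). In iBAT they were Itgam (-1.22, adjusted p = 0.0424), Itgb2 (-1.08, adjusted p = 0.0243) and C3ar1, the receptor of C3a (-1.09, adjusted p = 0.00193). Itgam had means under 1 CPM in both groups there, at 0.356 in MetR_CE and 0.853 in Ctrl_CE. Without the same mouse C3ar1 was still called in iBAT (-0.94), whereas Itgam gave -1.01 (adjusted p = 0.107) and Itgb2 -0.93 (adjusted p = 0.0617), and by the second label none of the 3 was called. In iWAT C1qa (-1.46, adjusted p = 0.0252) and C1qb (-1.40, adjusted p = 0.0310), chains of the first classical component, stood beside Itgam (-1.40, adjusted p = 0.0356), all 3 called without that mouse too. Macrophage markers were lower in the same comparisons, as given above, and their part in the values of these genes was not tested. In eWAT Masp1, a protease of the lectin pathway, gave -1.26 (adjusted p = 0.0476) and C1qb -0.65 (adjusted p = 0.0342). Neither was called without replicate 4 of Ctrl_CE (-1.06, adjusted p = 0.101, and -0.47, adjusted p = 0.0890), and leaving out each of the 24 eWAT libraries in turn ended the call of Masp1 15 times and that of C1qb 6 times.

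Cold on the control diet gave both directions in liver, with 11 of the 53 listed genes called higher, where 7.28% of all genes were, and 9 lower, where 4.64% were. The 6 receptors called there were all higher, among them Cd93 with a log2 fold change of 1.60 (adjusted p = 6.21e-06). The 4 terminal components called were all lower. Of the 5 endothelial markers 4 were called higher in that comparison (all 5 without replicate 4 of Ctrl_CE). They summed to 60.7 to 80.2 CPM in Ctrl_RT and 106 to 183 CPM in Ctrl_CE. Macrophage markers were called higher there too, as given above. The part of these markers in the receptor values was not tested. In iWAT 2 listed genes were called higher and 17 lower, in iBAT 2 and 9, and in eWAT 2 and 1. The shares of all genes called higher were 5.99%, 4.97% and 0.979%. Cpn2, a subunit of the carboxypeptidase that inactivates C3a and C5a, rose in iWAT from a mean of 1.65 to 15.7 CPM (log2 fold change 3.23, adjusted p = 3.93e-05), without overlap. Of the 6 hepatocyte markers 3 were called higher in that comparison (2 without replicate 4 of Ctrl_CE), as were all 4 brown adipocyte markers. The hepatocyte markers summed to 17.3 to 37.5 CPM in Ctrl_RT and 37.5 to 78.9 CPM in Ctrl_CE. The part of these markers in the Cpn2 value was not tested. In eWAT, Cpn2 gave 2.44 (adjusted p = 0.0273) at under 1 CPM and was not called with all libraries (1.29, adjusted p = 0.104). Masp1 in eWAT had means of 9.57 and 31.9 CPM in Ctrl_RT and Ctrl_CE (1.73, adjusted p = 0.0497), without overlap, and lost its call in 16 of the 24 refits that left out 1 library. The remaining genes of largest fold, C1rb in liver (-2.31), C8b and Hc in iBAT (-3.88 and -3.69) and Colec10 in iWAT (-2.66), had means under 1 CPM in both groups.

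**Figure D5:**
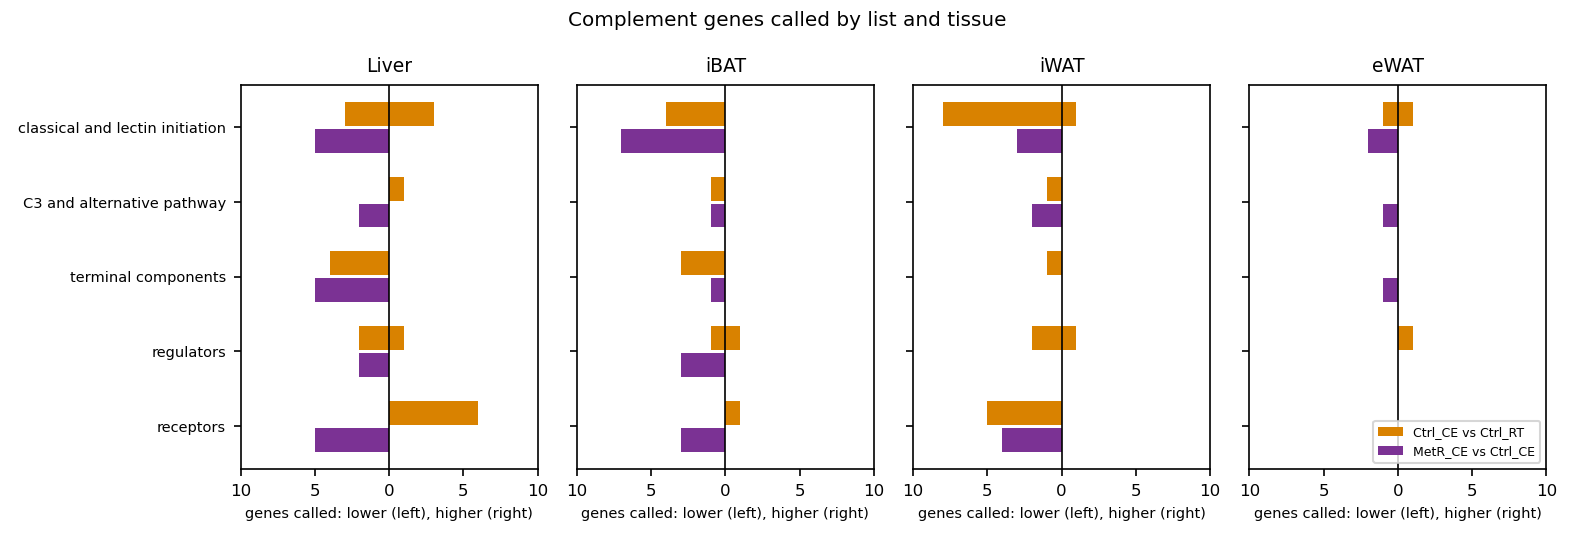
Number of complement genes called lower (to the left) and higher (to the right) by role and tissue, for cold on the control diet and for restriction in the cold, members included. In liver the 6 receptors called with cold are all higher and the 4 terminal components all lower, and for restriction in the cold every bar points to the left.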

How the data were processed

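Libraries were made from poly(A) RNA and sequenced as 2 × 50 bp pairs. Counts per gene were deposited by the authors in 3 tables as whole numbers without normalization. Per the submitters' processing notes the tools were STAR 2.7.9a, featureCounts 2.0.3, Salmon 1.9.0, MultiQC 1.19 and DESeq2 1.46.0 with mm10; which of featureCounts and Salmon made these counts, and the strand setting, are not given in the sources used here, and genes that overlap or have near-identical copies can share reads. Each of the 110 columns was matched to a sample by library name, and 0 were left unused. Groups come from titles.

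The members and gene lists were chosen with earlier results of these data known. The 5 libraries the study left out were identified by matching mean counts with its source data (best subset 0.151% median deviation in eWAT and 0.251% in iBAT, next best 0.775% and 1.15%). Genes with at least 10 counts over a tissue were tested with edgeR 4.0.16 in R 4.3.3 (TMM, quasi-likelihood, diet, temperature and their interaction, two-sided), with Benjamini-Hochberg adjustment over all genes of a tissue. The SE is the log2 fold change over the square root of F. Levels are TMM-scaled CPM, and log2 CPM used a prior count of 2. The difference between tissues came from a joint edgeR fit. Alternatives were DESeq2 1.42.0, limma 3.58.1 with the mouse as block, other scaling, filters, libraries and groupings, and a replicate block. Depth ranges are given with the results; low counts widen the error. Of 56884 identifiers, 51948 matched a symbol without and 35 with their version; exon lengths and coordinates are from GENCODE vM21. Of the other complement genes, those with the largest absolute log2 fold change among the called ones were named, 3 per tissue for restriction in the cold and 2 for cold on the control diet. Mice are separate animals, and the script was tested on simulated counts.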

Additional observations from a re-analysis of the deposited data

Results flagged for a closer look

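Of 104 groups tested, 11 had a library whose gap to the next one took up more of the group's range than Dixon's 95% value allows; chance alone gives about 1 in 20. Of the 11, 3 belong to the Ctrl_CE mouse of replicate 4: C3 at 28498 CPM in liver (others 7961 to 14236), C3 at 3406 CPM in eWAT (others 692 to 1322) and C4b at 1891 CPM in eWAT (others 308 to 989). The same mouse had the highest S100a9 and Lcn2 of its group in all 4 tissues.

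Replicate 3 of Ctrl_CE in eWAT was high in Cfb at 33.8 CPM (others 16.4 to 18.9) and low in Cfd at 2019 CPM (others 5473 to 7057). Replicate 2 of MetR_CE in iBAT was high in C3 at 776 CPM (others 554 to 634) and in C4b at 19.1 CPM (others 4.72 to 9.67). C2 in iWAT was low in replicate 5 of Ctrl_RT at 31.1 CPM (others 53.8 to 70.9). C3 in eWAT was high in replicate 6 of MetR_RT at 1545 CPM (others 882 to 1015), C7 in iBAT was high in replicate 6 of Ctrl_CE at 11.8 CPM (others 3.67 to 6.05), and Cfd in iBAT was low in replicate 6 of Ctrl_RT at 170 CPM (others 314 to 384).

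The effect of restriction in the cold on C3 differed between iBAT and eWAT by a log2 of 1.08 (effects -0.24 and -1.31) in the joint edgeR fit, and not past the threshold with the mouse as block (1.06) or without the Ctrl_CE mouse of replicate 4 (0.78).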

How the results depend on the processing

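Of the counts of calls under the alternatives, 27 moved by over 1.5 times; of the members' values 1479 kept direction and side of the threshold, 24 changed sign, 13 lost and 8 gained a call. For restriction in the cold, the members called in iBAT went from 3 to 0 and the listed complement genes from 15 to 0 when libraries were grouped by the second label. In iWAT they went from 1 to 2 and from 9 to 15 with DESeq2, and in eWAT the listed genes went from 4 to 2 with all libraries. For cold on the control diet in iBAT, the members went from 2 to 4 with all libraries and to 1 without the 3 libraries with differing labels, and the listed genes from 11 to 7 with edgeR's own filter (filterByExpr) and to 7 without those 3 libraries; in eWAT they went from 3 to 6 with all libraries. The interaction in eWAT went from 0 to 1 member with DESeq2 and with filterByExpr. Leaving out single eWAT libraries gave 2 to 7 listed genes for restriction in the cold, 1 to 3 for cold on the control diet, and 0 to 1 members for the interaction. The C3 call for cold on the restricted diet in iWAT was lost without a count filter (adjusted p = 0.0614). The causes were not tested.

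Signs turned in values that had not been called. With C2, Cfb and Gm20547 counted as 1 feature, cold on the restricted diet gave 0.0086 for C2 in liver, and for Cfb -0.23 in iWAT and -0.20 in eWAT, while cold on the control diet gave -0.21 for Cfb in liver; the sum is mostly C2 where C2 is the higher. With all libraries in eWAT, cold on the control diet gave 0.16 for C3, 0.11 for Cfb and -0.27 for C7. Without replicate 4 of Ctrl_CE, it gave -0.032 for Cfb in liver, and restriction in the cold gave 0.11 for Cfd in iWAT and 0.028 for C4b in eWAT. C7 in iBAT on the restricted diet gave -0.11 by the second label and -0.027 without the 3 libraries, and its difference between iBAT and eWAT was 0.16 with the mouse as block. Leaving out single eWAT libraries gave, for cold on the control diet, -0.52 to 0.21 for C3, -0.088 to 0.64 for C7 and -0.23 to 0.064 for Cfb, for restriction in the cold -0.12 to 0.0046 for C2 and -0.55 to 0.028 for C4b, and for cold on the restricted diet -0.030 to 0.16 for Cfb.

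Replicate numbers name samples and do not pair them: same-numbered libraries correlated with medians of 0.0013, 0.0166, 0.0543 and 0.0691 for liver, iBAT, iWAT and eWAT, with signs of both kinds. With a replicate block, for restriction in the cold in iWAT the members called went from 1 to 0 and the listed genes from 9 to 3, and in eWAT with cold on the control diet the listed genes from 3 to 1. C3 then missed in liver (adjusted p = 0.0753) and iWAT (0.0538), and for cold on the restricted diet in iWAT (0.0816), and C4b in iBAT on the restricted diet gave -0.055.

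The 4 Ctrl_RT libraries in eWAT, 3 with doubtful labels in iBAT and C6 counts near 0 in iBAT are the main limits. Genes under 1 CPM had errors too wide for a statement.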

Other observations

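Over the 16 means of tissue and group, the genes most like C2 by Pearson correlation of log2 CPM centred within each tissue, among 10910 genes at a mean of 1 CPM or more in every tissue, were C4b (0.922), Egfr (0.910), C1ra (0.905), S100a9 (0.902) and Nrep (0.899). Those most like C6, among 10911, were H2-K1 (0.916), Alas2 (0.914), Hbb-bt (0.876), Map3k14 (0.873) and Aurka (0.868), with C3 in rank 10 (0.851). The means share mice and include the Ctrl_RT and MetR_RT groups by which C2 and C6 were chosen. C6 in iBAT is near 0 CPM. The Ctrl_CE means of S100a9 hold replicate 4, at 47.8 to 85.3 times the median of the other libraries. The correlations are therefore descriptions.

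Scaled over all eWAT libraries, the summed epididymal epithelium markers were highest in replicate 2 of Ctrl_RT, which the study left out, at 8459 CPM, and in replicate 2 of MetR_RT, which it kept, at 1306.2 CPM.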
